A study of Mus musculus with 10 samples.

Results

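The Ms4a genes encode small proteins that cross the cell membrane several times, and 9 of them were taken by name as the members described here: Ms4a1, Ms4a4a, Ms4a4b, Ms4a4c, Ms4a4d, Ms4a6b, Ms4a6c, Ms4a6d and Ms4a7. They are family genes of B cells, T cells and monocytes or macrophages and were chosen by their measured levels in FLASH, CONV and sham fat, so every difference between these groups is given as a description and not as a test. Of the 9 symbols, 8 were found among the 24421 gene symbols of the count files, and all 8 passed the filter on low counts. Ms4a4a is not analysed here.

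Total RNA was sequenced from inguinal subcutaneous white fat of wild-type C57BL/6J mice at day 70. The FLASH group (4 libraries) had received 33.3 Gy of electrons to the left hindlimb with the accelerator in its ultra-high dose rate mode. The CONV group (3 libraries) had received the same dose in the conventional mode, and the sham group (3 libraries) was not irradiated. All 10 libraries carry the same batch label, and whether each came from its own animal is not stated, so any p-value measures only the spread between these libraries.

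MS4A proteins sit in the plasma membrane and endosomes of blood cells, where several of them associate with receptors and adjust their signalling. Ms4a1 encodes CD20, the classical surface marker of B cells, and Ms4a2 encodes the beta chain of the high-affinity IgE receptor of mast cells. Ms4a4b is known from mouse T cells, where its product associates with the receptor GITR (Tnfrsf18), while Ms4a6c, Ms4a6d and Ms4a7 are mostly known from monocytes and macrophages. In white fat these cells are scattered among adipocytes, and the inguinal pad also surrounds a lymph node.

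Counts assigned to genes were 22.4 M to 36.0 M per library (M, 1e+06), and CPM are counts scaled to that size after TMM correction. The floor used for undetected genes, 3 counts, equalled 0.0909 to 0.114 CPM and covers counting error only. The summed level of 10 adipocyte genes was 3540 to 20300 CPM in FLASH, 3260 to 21600 CPM in CONV and 15100 to 18300 CPM in sham libraries, and no gene of that list was at 0 in any library. FLASH replicate 3 and CONV replicate 2 stood apart. Their mean over 12 B cell genes, Ms4a1 not among them, exceeded the sham mean by 8.48 and 8.80 (log2), their T cell list mean by 6.74 and 6.15, and their adipocyte list mean stood at −2.36 and −2.55 from it. They are called the lymphocyte-rich pair below, and each result is given with all 10 libraries and with the other 8 (FLASH 3, CONV 2, sham 3).

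The members lie together on mouse chromosome 19, inside a stretch that runs from Ms4a10 to Ms4a3 at chr19:10962293-11640851 (GENCODE M21, GRCm38). Ms4a4c (chr19:11404770-11427246), Ms4a4b (chr19:11443553-11467055) and Ms4a6c (chr19:11469366-11482192) follow each other on the plus strand, with Ms4a6b (chr19:11516512-11531256) and Ms4a4d (chr19:11536801-11558467) behind them. Ms4a1 (chr19:11249675-11266241), Ms4a7 (chr19:11321039-11336146) and Ms4a6d (chr19:11586604-11604849) lie on the minus strand. Coding sequences were 91.8% identical between Ms4a4b and Ms4a4c, 85.8% between Ms4a4c and Ms4a4d and 83.6% between Ms4a4b and Ms4a4d. Those of Ms4a6b and Ms4a6d were 79.9% identical. Of the 50-base stretches of Ms4a4c, 7.73% also occurred in Ms4a4b, and 1.53% the other way round. Ms4a6c shared 5.85% of its stretches with Ms4a6b, and Ms4a6b 2.57% with Ms4a6c. Ms4a6d shared 2.31% with Ms4a6b, and Ms4a4d 0.546% with Ms4a4c. How the counting treated reads from such stretches is not known, so the levels of these genes and the ratios between them are uncertain to that extent.

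The start regions of 2 neighbouring pairs are shown because their members, alike in sequence, had unlike patterns (Ms4a4c and Ms4a4b) or, outside the lymphocyte-rich pair, like ones (Ms4a6c and Ms4a6b). Each runs from 250 bases before to 50 bases after the RefSeq start (GRCm38.p6, plus strand). They lie at chr19:11407411-11407710, chr19:11443308-11443607, chr19:11469118-11469417 and chr19:11518309-11518608 in the order printed, and capitals mark motif matches.
Ms4a4c: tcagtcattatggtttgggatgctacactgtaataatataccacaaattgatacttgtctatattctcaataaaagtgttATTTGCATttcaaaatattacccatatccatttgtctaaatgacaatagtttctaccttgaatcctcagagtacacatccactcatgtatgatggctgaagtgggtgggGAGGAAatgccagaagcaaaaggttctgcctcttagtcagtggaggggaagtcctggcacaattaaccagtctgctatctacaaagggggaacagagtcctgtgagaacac
Ms4a4b: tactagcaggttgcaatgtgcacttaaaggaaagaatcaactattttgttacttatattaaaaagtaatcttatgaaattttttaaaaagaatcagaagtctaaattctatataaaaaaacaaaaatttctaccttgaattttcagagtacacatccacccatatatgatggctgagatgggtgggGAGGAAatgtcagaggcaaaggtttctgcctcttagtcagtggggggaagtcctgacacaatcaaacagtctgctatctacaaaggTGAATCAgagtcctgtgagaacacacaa
Ms4a6c: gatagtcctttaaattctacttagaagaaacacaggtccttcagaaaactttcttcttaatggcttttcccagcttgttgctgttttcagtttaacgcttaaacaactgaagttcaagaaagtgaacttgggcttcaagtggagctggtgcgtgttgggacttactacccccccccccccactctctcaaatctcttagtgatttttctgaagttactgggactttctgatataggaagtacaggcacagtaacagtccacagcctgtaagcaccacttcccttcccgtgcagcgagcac
Ms4a6b: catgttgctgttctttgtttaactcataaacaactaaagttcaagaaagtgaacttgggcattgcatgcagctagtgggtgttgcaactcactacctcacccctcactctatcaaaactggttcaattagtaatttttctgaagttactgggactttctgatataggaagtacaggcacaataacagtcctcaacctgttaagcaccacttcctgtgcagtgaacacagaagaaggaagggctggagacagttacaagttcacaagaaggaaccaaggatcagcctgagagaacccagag

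Of the aligned bases, 80.9% (228 of 282) were identical between the Ms4a4c and Ms4a4b regions and 85.9% (189 of 220) between those of Ms4a6c and Ms4a6b. On both strands 6 motifs were searched. The octamer ATTTGCAT, present in 1.74% of 32851 mouse promoters of the same length, matched Ms4a4c at 170 bases before the start and did not match Ms4a4b. The PU.1 core GAGGAA, present in 28.3% of promoters, matched Ms4a4c at 61 and Ms4a4b at 64 bases before the start, and the AP-1 motif TGANTCA (7.81%) matched Ms4a4b just after its start, overlapping no other match. The interferon response motif (3.44%), TTCNNNGAA (STAT, 8.30%) and TTGCNNCAA (C/EBP, 2.08%) matched none of the regions shown, and no motif of the 6 matched those of Ms4a6c or Ms4a6b. The RefSeq table held start regions for 7 of the 9 members, not for Ms4a1 or Ms4a6d.

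Ms4a1, the CD20 gene, was abundant only in the lymphocyte-rich pair. Its level was 0.334, 0.221, 267 and 0.678 CPM in FLASH replicates 1 to 4, 1.82, 349 and 0.407 CPM in CONV replicates 1 to 3, and 0.455, 0.196 and 0.469 CPM in sham replicates 1 to 3. Outside the pair every library had 57 or fewer counts of Ms4a1, and the groups overlapped. Relative to the summed B cell list, Ms4a1 stood at 10.2% and 10.8% in the pair, and at 1.65% to 7.17% in the other 8 libraries. The B cell genes Cd22 and Cr2 followed the same split, with Cd22 at 468 and 659 CPM in the pair and at most 2.94 CPM elsewhere. In bulk tissue, a change in the number of cells and a change in RNA per cell cannot be told apart.

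**Figure D1:**
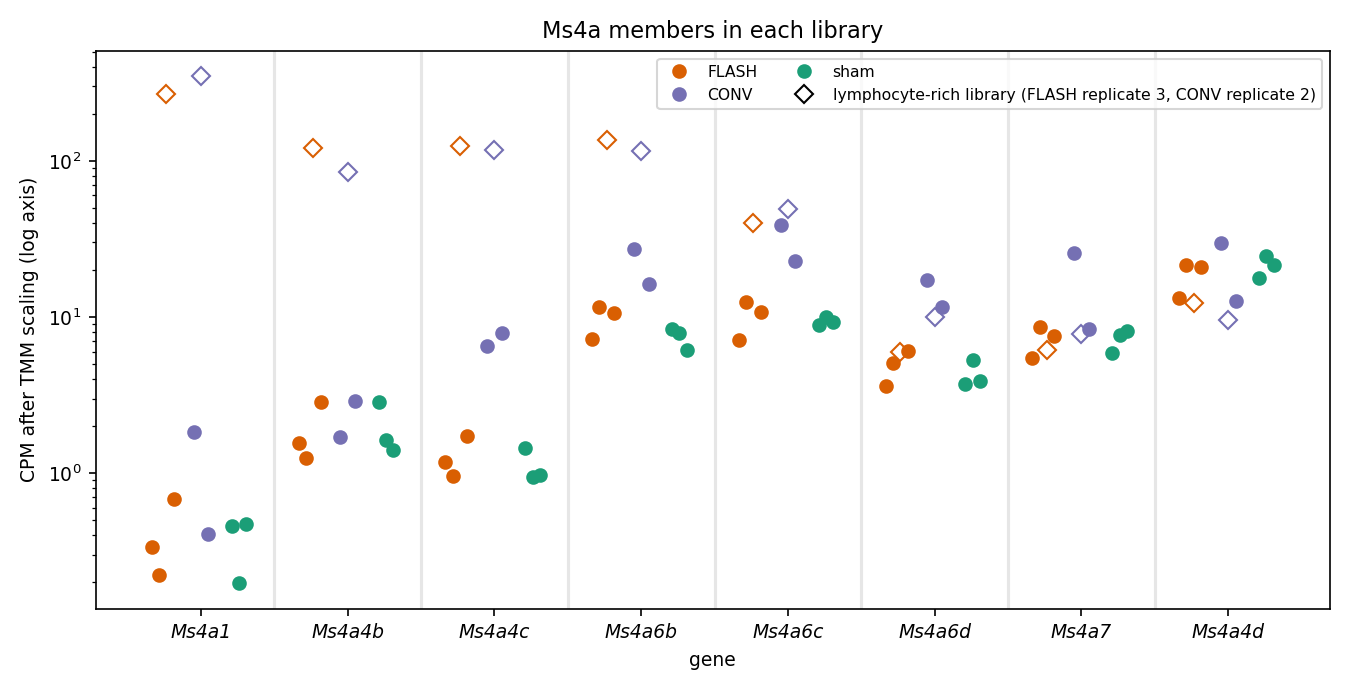
Level of the 8 members in each library, in CPM after TMM scaling on a log axis, with FLASH, CONV and sham libraries from left to right for each gene and open diamonds for the lymphocyte-rich pair. Ms4a1 reached 267 CPM in FLASH replicate 3 and 349 CPM in CONV replicate 2 and stayed at or below 1.82 CPM in the other 8 libraries.

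Ms4a4b, the T cell member, was likewise high in the pair. It had 1.55, 1.25, 121 and 2.84 CPM in FLASH libraries, 1.69, 85.1 and 2.89 CPM in CONV libraries, and 2.85, 1.63 and 1.41 CPM in sham libraries. Without the pair the 3 groups covered the same range. Its share of the summed T cell list was 9.59% to 19.1% in FLASH, 10.1% to 16.0% in CONV and 14.7% to 16.2% in sham libraries, so this share differed far less between libraries than the level did. The gene of its partner receptor GITR, Tnfrsf18, stood at 8.35 and 7.24 CPM in the pair.

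Ms4a4c, the near-copy of Ms4a4b, had another pattern. Its level was 1.18, 0.956, 125 and 1.73 CPM in FLASH, 6.48, 118 and 7.92 CPM in CONV, and 1.45, 0.948 and 0.972 CPM in sham libraries. All 3 CONV libraries stood above all 3 sham libraries, as for 8.63% of all genes tested, and FLASH overlapped with sham. The ratio of Ms4a4c to Ms4a4b was 0.765, 0.765, 1.03 and 0.609 in FLASH, 3.83, 1.38 and 2.74 in CONV, and 0.511, 0.580 and 0.690 in sham libraries. Every CONV library thus had a higher ratio than any FLASH or sham library, the lymphocyte-rich one included. This ratio was chosen after the values were seen.

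**Figure D2:**
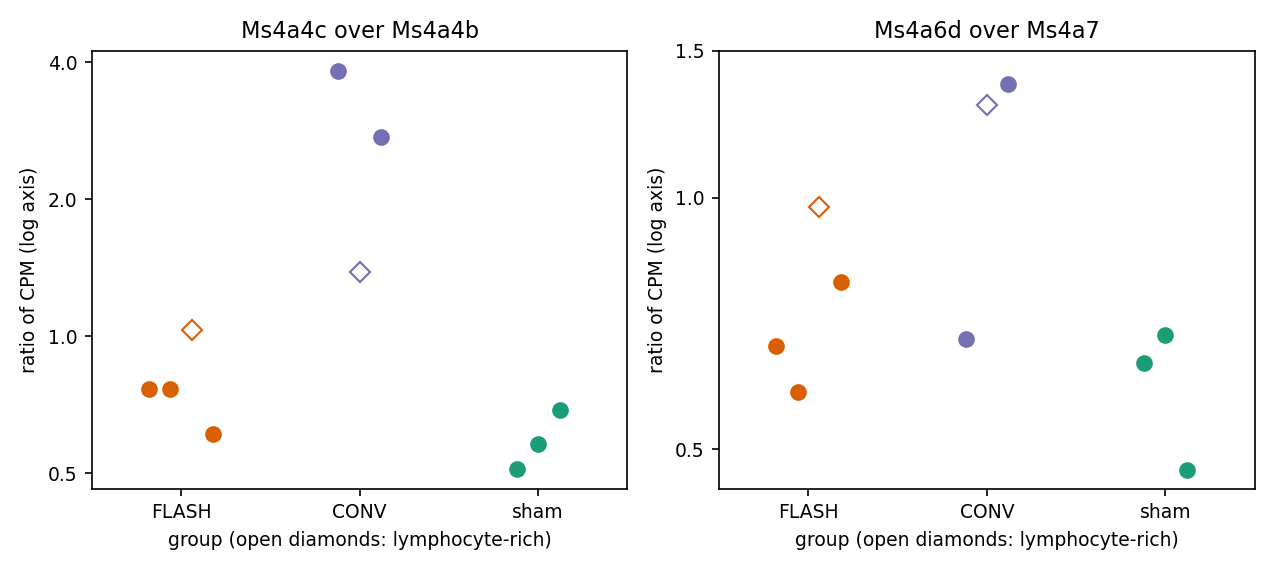
Ratio of Ms4a4c to Ms4a4b and of Ms4a6d to Ms4a7 in CPM on a log axis, with 1 point per library, FLASH, CONV and sham from left to right, and open diamonds for the lymphocyte-rich pair. The ratio of Ms4a4c to Ms4a4b lay between 1.38 and 3.83 in CONV libraries, between 0.609 and 1.03 in FLASH libraries and between 0.511 and 0.690 in sham libraries.

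Ms4a6b, Ms4a6c and Ms4a6d were higher in every CONV than in every sham library, as were 8.63% of all genes tested. Of these, Ms4a6c and Ms4a6d are mostly known from monocytes and macrophages. Ms4a6d had 3.61, 5.08, 5.94 and 6.01 CPM in FLASH, 17.3, 10.0 and 11.6 CPM in CONV, and 3.73, 5.26 and 3.86 CPM in sham libraries. FLASH libraries overlapped with sham libraries and lay below every CONV library (1.17% of all genes tested), and the pair did not stand apart. Ms4a6c had 7.07, 12.4, 39.7 and 10.8 CPM in FLASH, 38.6, 49.0 and 22.8 CPM in CONV, and 8.91, 10.0 and 9.29 CPM in sham libraries. In FLASH replicate 3 it was above CONV replicates 1 and 3, and the other FLASH libraries were below all CONV libraries. Ms4a6b had 7.26, 11.5, 136 and 10.6 CPM in FLASH, 27.1, 115 and 16.3 CPM in CONV, and 8.39, 7.88 and 6.10 CPM in sham libraries. Both members of the pair were again highest.

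Within the Ms4a6 genes the balance differed between libraries. Ms4a6b per Ms4a6c was 3.44 and 2.34 in the pair, and 0.657 to 1.03 in the other 8 libraries. Ms4a6d per Ms4a7, in contrast, was 0.975 and 1.29 in the pair, 0.585 to 0.793 in the other FLASH libraries, 0.677 and 1.37 in CONV replicates 1 and 3, and 0.473 to 0.685 in sham libraries. Against the summed macrophage list (12 genes), Ms4a6d made up 0.460% to 0.696% in FLASH, 0.574% to 1.42% in CONV and 0.476% to 0.602% in sham libraries. Ms4a6c made up 0.946% to 3.07% in FLASH, 1.93% to 2.81% in CONV and 1.14% to 1.34% in sham libraries.

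Ms4a7, known from tissue macrophages, had 5.43, 8.68, 6.10 and 7.58 CPM in FLASH, 25.6, 7.74 and 8.40 CPM in CONV, and 5.88, 7.68 and 8.15 CPM in sham libraries. CONV replicate 1 was the only library above 8.68 CPM. The same library had the highest mean of the resident macrophage list, 1.47 log2 units above the sham mean, against −0.63 and −0.36 in CONV replicates 2 and 3. Mrc1, the mannose receptor gene of resident macrophages, had 191, 246, 81.0 and 305 CPM in FLASH, 631, 90.3 and 241 CPM in CONV, and 223, 277 and 250 CPM in sham libraries. CONV replicate 1 also had skeletal muscle genes 6.37 log2 units above the sham mean. That list stood at 4.53 in sham replicate 3, itself part of that mean, and at 3.03 in FLASH replicate 2. The part of macrophage or muscle content in the Ms4a7 level of CONV replicate 1 was not tested.

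Ms4a4d was the member that was lowest where the lymphocyte members were highest. It had 13.3, 21.5, 12.2 and 20.9 CPM in FLASH, 29.7, 9.58 and 12.7 CPM in CONV, and 17.8, 24.6 and 21.5 CPM in sham libraries. The groups overlapped. The adipose progenitor and fibroblast list (10 genes) had means of −1.66 and −1.58 log2 units from sham in the pair and −1.08 in CONV replicate 3. These 3 libraries held the lowest Ms4a4d levels. The resident macrophage list was also lowest in them, at −1.41 and −0.63 in the pair and −0.36 in CONV replicate 3. Both lists were highest in CONV replicate 1 (0.38 and 1.47), as Ms4a4d was. The part of either cell type in the Ms4a4d level was not tested. As a share of the progenitor list's sum, Ms4a4d ran from 0.235% to 0.730% in FLASH, 0.346% to 0.578% in CONV and 0.281% to 0.383% in sham libraries.

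The first comparison set FLASH fat against sham fat, at day 70 after the ultra-high dose rate. Outside the lymphocyte-rich library, member levels in FLASH fat were close to those in sham fat. With all 10 libraries the log2 fold changes with SE were 7.47 ± 3.53 for Ms4a1, 4.01 ± 2.10 for Ms4a4b, 4.84 ± 2.15 for Ms4a4c and 2.47 ± 1.18 for Ms4a6b. Without the pair the same genes had 0.14 ± 0.70, −0.07 ± 0.43, 0.19 ± 0.31 and 0.38 ± 0.26. For Ms4a6c the values were 0.89 ± 0.56 and 0.09 ± 0.26, for Ms4a6d 0.27 ± 0.29 and 0.19 ± 0.27. Ms4a7 had −0.06 ± 0.42 and −0.01 ± 0.39, and Ms4a4d −0.33 ± 0.39 and −0.21 ± 0.33. No member was called by edgeR's quasi-likelihood test at an adjusted p under 0.05, with 0% of 15266 genes called, and none was called without the pair, with 0% of 15252 genes. At an unadjusted p under 0.05 the count was 0 of 8 in both sets, beside 99 of 15266 and 385 of 15252 genes. DESeq2 (0% and 0.0262% of genes called) and limma voom (0% in both) also called 0 members. With all 10 libraries DESeq2 gave no adjusted p for Ms4a1, Ms4a4b and Ms4a4c here, so it could not call them. No member had all FLASH libraries above all sham libraries (2.51% of all genes) or below them (2.46%), nor without the pair (5.26% and 4.56%).

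The second set CONV fat against sham fat, for the conventional dose rate. Ms4a4c, Ms4a6b, Ms4a6c and Ms4a6d stood higher in all 3 CONV libraries than in all 3 sham libraries, as did 8.63% of all genes tested. Without the pair Ms4a7 joined them, against 13.1% of genes. No member lay lower in all CONV than in all sham libraries (9.01% of genes, and 13% without the pair). Ms4a6d averaged 13 ± 3.87 CPM in CONV and 4.28 ± 0.851 CPM in sham libraries (SD, n = 3 each), a log2 fold change of 1.60 ± 0.31 with all 10 libraries and 1.74 ± 0.29 without the pair. Ms4a6c had 1.97 ± 0.61 and 1.69 ± 0.29, Ms4a6b 2.82 ± 1.24 and 1.52 ± 0.29, and Ms4a4c 5.28 ± 2.24 and 2.65 ± 0.34. Ms4a7 had 0.94 ± 0.46 and 1.22 ± 0.43, and with CONV replicate 1 alone left out its value was 0.14. Ms4a1 had 8.28 ± 3.69 and 1.56 ± 0.74, and 0.09 with the pair and CONV replicate 1 left out. Ms4a4b had 3.92 ± 2.14 and 0.19 ± 0.48, and Ms4a4d −0.30 ± 0.42 and −0.02 ± 0.37.

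In that comparison edgeR called 0 of 8 members with all 10 libraries (0% of 15266 genes called) and 0 of 8 without the pair (0.0393% of 15252 genes called). At an unadjusted p under 0.05 the counts were 4 and 5 of 8, beside 895 of 15266 and 2022 of 15252 genes. DESeq2 called 1 member with all libraries, Ms4a6d (0.432% of genes called), and 4 without the pair, Ms4a4c, Ms4a6b, Ms4a6c and Ms4a6d (4.33% of genes called), while limma voom called 0 in both sets (0% and 0.0262% of genes). With all libraries DESeq2 gave no adjusted p for Ms4a1, Ms4a4b and Ms4a4c. Since these contrasts were known when the members were chosen, nothing is read from the counts.

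**Figure D3:**
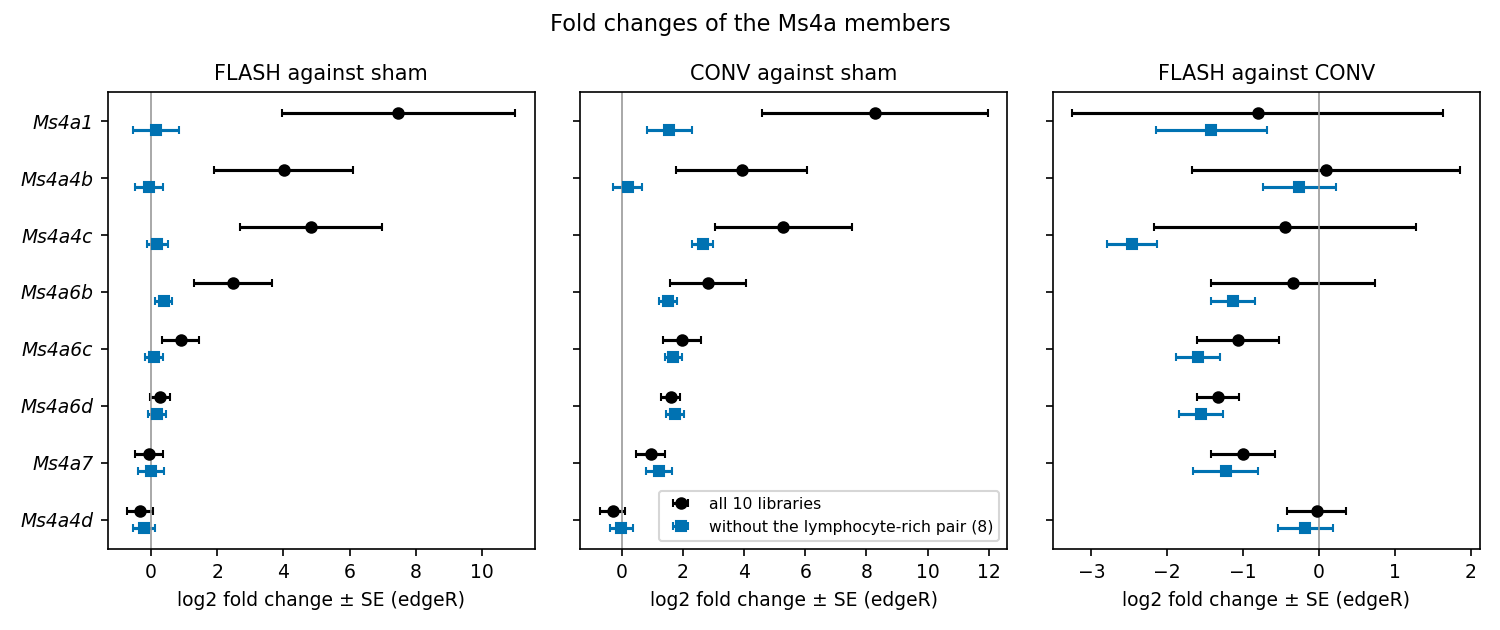
Log2 fold changes of the 8 members with SE from edgeR in each of the 3 comparisons, over all 10 and over the 8 other libraries. The FLASH against sham value of Ms4a1 lay at 7.47 over the 10 libraries and 0.14 over the 8, and the CONV against sham value of Ms4a6d at 1.60 and 1.74.

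FLASH and CONV were compared directly, to set the dose rates against each other at one dose. Ms4a6d was lower in all 4 FLASH libraries than in all 3 CONV libraries, which held for 1.17% of all genes, and without the pair Ms4a4c, Ms4a6b and Ms4a6c were too (13.2% of genes). No member was higher in all FLASH libraries (1.15% of genes, and 12.8% without the pair). The log2 fold change of Ms4a6d was −1.33 ± 0.28 with all 10 libraries and −1.55 ± 0.29 without the pair. Ms4a6c had −1.07 ± 0.54 and −1.60 ± 0.29, Ms4a6b −0.35 ± 1.08 and −1.14 ± 0.29, and Ms4a4c −0.45 ± 1.72 and −2.46 ± 0.33. Ms4a7 had −1 ± 0.42 and −1.23 ± 0.43, Ms4a1 −0.81 ± 2.44 and −1.42 ± 0.73, Ms4a4b 0.09 ± 1.77 and −0.26 ± 0.48, and Ms4a4d −0.03 ± 0.39 and −0.18 ± 0.36. Single libraries set several of these values. Without CONV replicate 1 Ms4a7 had −0.20 with the pair kept and −0.19 with it left out. Without FLASH replicate 3 alone Ms4a1 had −8.15 and Ms4a4b −4.01, and without CONV replicate 2 alone they had 5.91 and 3.81. By edgeR 0 of 8 members were called with all libraries (0% of genes called) and 0 of 8 without the pair (0.0131%). Unadjusted p-values under 0.05 were seen for 2 and 5 members, beside 453 of 15266 and 2082 of 15252 genes. DESeq2 called 1 (Ms4a6d, 0.262% of genes called) and 4 (Ms4a4c, Ms4a6b, Ms4a6c and Ms4a6d, 4.37%), and limma voom 0 and 0 (0% and 0.0197%). Again DESeq2 gave no adjusted p for Ms4a1, Ms4a4b and Ms4a4c with all libraries. The comparisons share their libraries, so these values are not independent of the ones against sham.

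Marker lists of the cells that carry these genes were read beside the members. Without the pair, the monocyte list had 8 of 10 genes with a positive log2 fold change in CONV against sham, with a median of 0.76, and the macrophage list 12 of 12, with a median of 0.87. The members had 7 of 8 and a median of 1.54, against 51.3% positive and a median of 0.01 over all genes. Since the members were chosen by these levels, nothing is read from that gap. In FLASH against sham, the monocyte list had 4 of 10 positive (median −0.20), the macrophage list 10 of 12 (0.07) and the members 5 of 8 (0.11). Over all genes 48.5% were positive there, with a median of −0.01. No gene of the 18 lists was called by edgeR in either comparison. Of the macrophage genes, Lyz2 had 212, 288, 771 and 255 CPM in FLASH, 736, 1080 and 221 CPM in CONV, and 252, 264 and 204 CPM in sham libraries. Csf1r, the receptor for the macrophage growth factor, had 137, 157, 182 and 153 CPM in FLASH, 281, 241 and 104 CPM in CONV, and 135, 145 and 114 CPM in sham libraries. In CONV replicate 3, where Ms4a4c, Ms4a6b, Ms4a6c and Ms4a6d were above the sham range, Lyz2 was inside it and Csf1r below it. Of the 12 macrophage genes in that library, 5 were above the sham range, 5 inside it and 2 below it, with Cd14 at 40.3 CPM and Fcgr1 at 11.4 CPM among those above. Of the 10 monocyte genes 5 were above it, with Ccr2 at 91.5 CPM and Plac8 at 12.6 CPM among them, 2 inside it and 3 below it. No gene of the macrophage or monocyte list was at 0 in any library, and the part of cell content in the members' values was not tested.

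**Figure D4:**
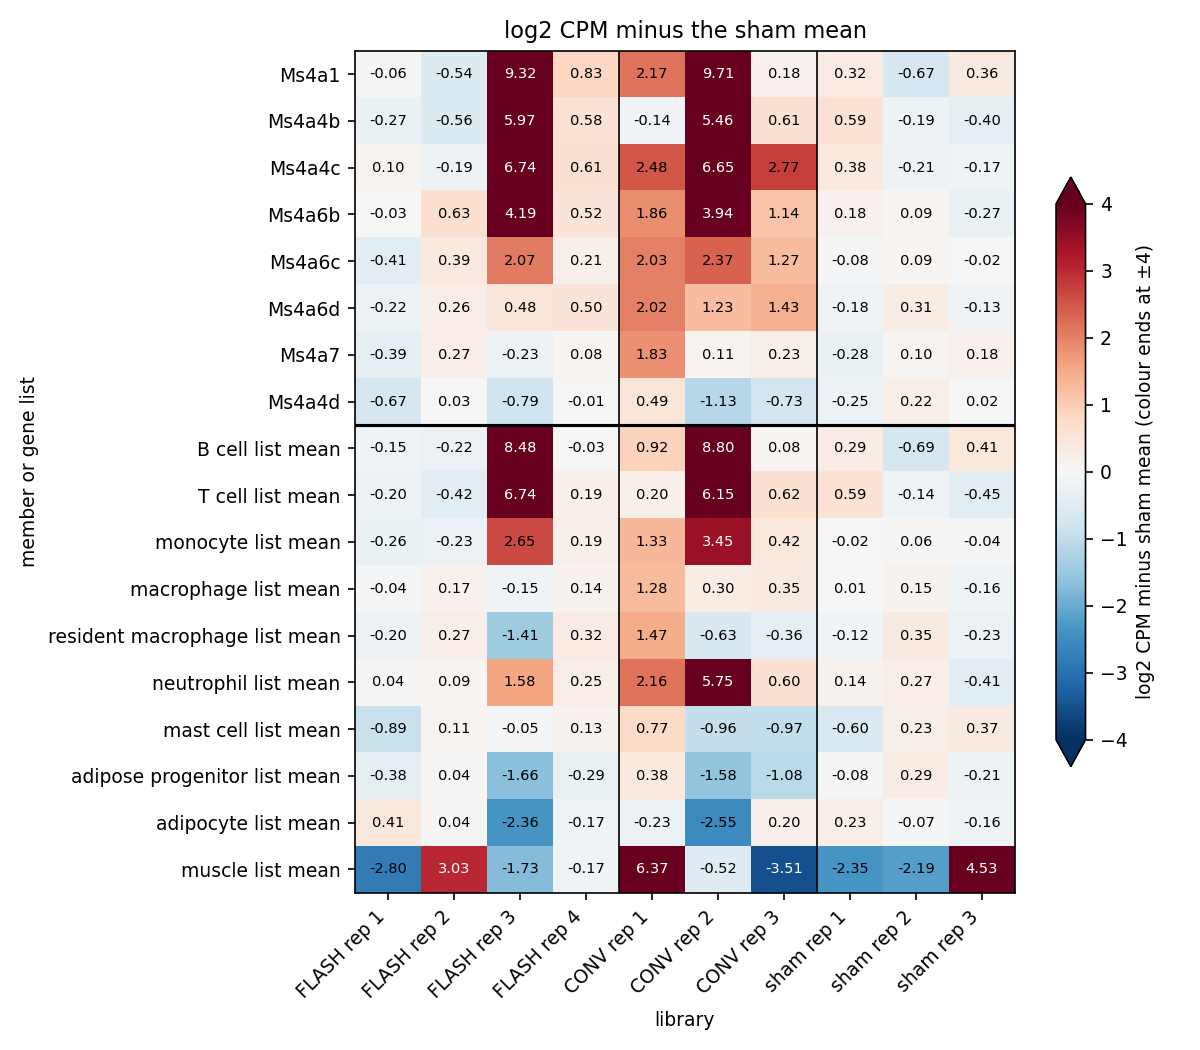
Heat map of log2 CPM minus the sham mean for each member (upper rows) and for the mean of each cell marker list (lower rows), with 1 column per library from FLASH over CONV to sham. Red is above and blue below the sham mean, and the colours end at 4 log2 units. The B cell list reached 8.48 and 8.80 in the lymphocyte-rich pair, and the macrophage list 1.28 in CONV replicate 1, against 0.30 and 0.35 in CONV replicates 2 and 3.

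Genes whose proteins are described together with MS4A proteins did not share one pattern. Clec7a, the Dectin-1 gene, had 12.9, 11.0, 21.0 and 12.5 CPM in FLASH, 25.5, 31.1 and 4.70 CPM in CONV, and 12.8, 11.3 and 16.1 CPM in sham libraries. Trem2, a lipid-sensing receptor gene of macrophages, had 1.09, 1.51, 0.381 and 1.94 CPM in FLASH, 6.20, 1.70 and 2.37 CPM in CONV, and 1.27, 1.08 and 1.58 CPM in sham libraries. Vsig4, a complement receptor gene of resident macrophages, was highest in CONV replicate 1, at 9.30 CPM, and at most 1.42 CPM in the other 9 libraries. All 6 genes of that list had a positive log2 fold change in CONV against sham without the pair (median 0.76), and 2 of 6 in FLASH against sham (median −0.23), with none called by edgeR.

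Levels were also set per kilobase of exon, to order the members within a group. In sham fat Ms4a4d was highest at a mean of 14.1 CPM per kb, then Ms4a6c at 5.11, Ms4a7 at 4.22, Ms4a6d at 2.79 and Ms4a6b at 2.78, with Ms4a4c at 0.653, Ms4a4b at 0.413 and Ms4a1 at 0.121. The ranges of Ms4a6d and Ms4a6b overlapped, as did those of Ms4a4c and Ms4a4b. FLASH fat without replicate 3 began in the same way, with Ms4a4d at 12.3 and Ms4a6c at 5.48 CPM per kb, and the ranges of each neighbour from Ms4a6c to Ms4a6d overlapped. In CONV fat without replicate 2, Ms4a6c at 16.7 CPM per kb came before Ms4a4d at 14.0, with overlapping ranges. In the pair the order was another, with Ms4a1 at 86.9 and 114 CPM per kb first, then Ms4a4c at a mean of 70.5 and Ms4a6b at 46.8.

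The members summed to 22.0, 34.5, 273 and 33.8 CPM per kb in FLASH, 81.6, 287 and 44.7 in CONV, and 27.2, 33.5 and 29.8 in sham libraries. Ms4a4d held 39.9%, 41.2%, 2.95% and 40.8% of that sum in FLASH, 24.0%, 2.21% and 18.8% in CONV, and 43.3%, 48.6% and 47.6% in sham libraries. It was a smaller part in every CONV library and in every FLASH library than in every sham library, with 41.2% in FLASH and 43.3% in sham fat the closest. Such a share also moves when other members change, and the Ms4a4d level itself overlapped between the groups. No share over all genes can be set beside this measure, so nothing is read from it. Ms4a1 held 31.8% and 39.6% of the sum in the pair and under 1% in each of the others.

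**Figure D5:**
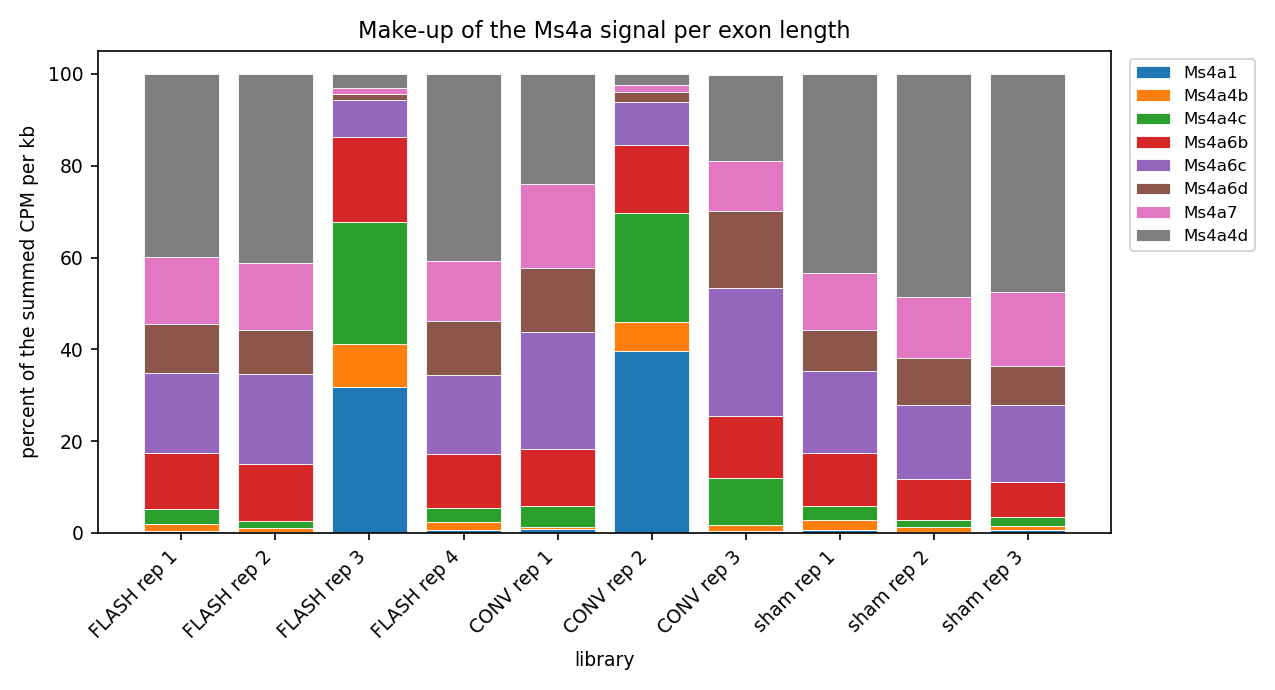
Share of each member in the summed level per kilobase of the 8 members, one stacked bar per library with FLASH, CONV and sham from left to right. Ms4a4d held 43.3% to 48.6% in sham libraries and 2.95% and 2.21% in the lymphocyte-rich pair.

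Other family genes of the locus were low. Ms4a2, the IgE receptor beta chain gene, had 0.668, 1.36, 0.991 and 1.45 CPM in FLASH, 1.53, 0.634 and 0.333 CPM in CONV, and 1.03, 2.06 and 2.01 CPM in sham libraries. The groups overlapped, and the mast cell list means of CONV replicates 2 and 3 lay at −0.96 and −0.97 log2 units from sham. Ms4a3, known from granulocyte and monocyte progenitors, had 29 counts in CONV replicate 2, 1 count in FLASH replicate 3 and 0 in the other 8 libraries. CONV replicate 2 also had the highest neutrophil list mean, 5.75 log2 units above the sham mean. Ms4a8a stayed between 1.45 and 6.13 CPM in all libraries. Ms4a5, Ms4a10 and Ms4a13 were at 0 counts in every library, and Ms4a15 and Ms4a18 had at most 2. The distant relatives Tmem176a and Tmem176b, which lie outside the locus on chromosome 6, were abundant. Tmem176a had 18.3, 23.5, 67.6 and 29.7 CPM in FLASH, 36.6, 63.5 and 75.0 CPM in CONV, and 17.8, 24.7 and 24.4 CPM in sham libraries. Every CONV library stood above every sham library for both relatives, as for 8.63% of all genes tested (13.1% without the pair).

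The genes most like each member over the 8 libraries without the pair were sought among 13261 genes, by Pearson's r of log2 CPM, as a description. Ms4a6c and Ms4a6d were among each other's closest (r = 0.98), and Ms4a6b was near both (0.96 and 0.95). Closest to Ms4a4c was Relt, a receptor gene of the TNF receptor family, at r = 0.99. Socs3, an inhibitor of cytokine signalling, came next at 0.979, with 8.68, 6.14, 35.2 and 8.94 CPM in FLASH, 38.5, 53.2 and 50.7 CPM in CONV, and 7.15, 7.42 and 7.75 CPM in sham libraries. Ms4a6c was closest to Trim30a (0.98), Ms4a6d to the adaptor gene Pik3ap1 (0.984) and Ms4a6b to the leukocyte adhesion gene Fermt3 (0.986) and the red cell gene Slc4a1 (0.986). Ms4a4d was closest to the nucleoside transporter gene Slc29a1 (0.985) and Ms4a7 to Fam134b (0.982), while Ms4a4b had its nearest gene at 0.97 (Rpl10). Ms4a1 was near the floor in these libraries, and its likeness is not interpreted. The points of these correlations share 3 groups, CONV replicates 1 and 3 being the highest for several members.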

How the data were processed

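Total RNA libraries of inguinal fat, depleted of ribosomal RNA, were deposited by the authors as raw counts, whole numbers per gene symbol and library. Kallisto 0.5.0 and the build mm10 were used, per the submitters' processing notes. Each file closes with entries named as by htseq-count for reads given to no gene. These held 52.0% to 69.6% of all counts and were left out of library sizes and tests. The aligner, annotation and strand setting were not given in the sources used here. Annotated exons of Ms4a6b and Ms4a6c overlap opposite-strand genes by 19 and 101 bases, so such reads cannot be told apart.

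Groups came from the labels. Counts were scaled by TMM (factors 0.869 to 1.17), filtered by filterByExpr and fitted with edgeR 4.0.16 (robust quasi-likelihood, 1 mean per group, all libraries together) in R 4.3.3. The tests were two-sided, with p-values adjusted by Benjamini and Hochberg over all genes tested and a threshold of 0.05. Log2 levels used a prior count of 2. The SE of an edgeR log2 fold change was derived from the test, as its absolute value divided by the square root of the F statistic. Alternatives used DESeq2 1.42.0, limma 3.58.1 (voom), other scalings and filters, a replicate block and left-out libraries. A library was lymphocyte-rich where its B cell list mean exceeded that of every sham library by more than 3 (log2). No 2 libraries were alike: at most 1.94% of genes had equal counts. Exon lengths and positions came from GENCODE M21, start regions from RefSeq. The steps were tested on simulated data. The named genes were the members, other Ms4a genes, Tmem176a and Tmem176b, the 2 most abundant genes per marker list and the 3 genes most like each member. Tnfrsf18, Trem2, Vsig4, Cd14, Fcgr1, Ccr2, Plac8 and Gm8369 were named after their values were seen. The members and lists were chosen with earlier results of these data known.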

Additional observations from a re-analysis of the deposited data

Results flagged for a closer look

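In FLASH replicate 3, 6 of 13 genes examined had a gap to the other FLASH libraries over Dixon's critical value (0.829 for 4 libraries). Chance passes about 1 in 20 groups, but that rate is no yardstick for this count, since the members were chosen by these levels, Gm8369 was named after its values were seen and the genes vary together. Ms4a1 was at 267 CPM there and at 0.221 to 0.678 CPM in the other FLASH libraries. Ms4a4b was at 121 CPM against 1.25 to 2.84 CPM, and Ms4a4c at 125 CPM against 0.956 to 1.73 CPM. Ms4a6b was at 136 CPM against 7.26 to 11.5 CPM, and Ms4a6c at 39.7 CPM against 7.07 to 12.4 CPM. Gm8369 was at 41.7 CPM against 0.0304 to 0.431 CPM. In the same library the B cell list mean lay 8.48 and the T cell list mean 6.74 log2 units above sham. Their part in these values was not tested.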

How the results depend on the processing

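A total of 32 alternatives were tried, of which 2 (limma voom and the replicate block, each without the lymphocyte-rich pair) were chosen after seeing the data. Ms4a4c, Ms4a6b, Ms4a6c, Ms4a6d, Ms4a7 and Ms4a1 had a positive log2 fold change in CONV against sham under all 32, with 1.32 to 2.01 for Ms4a6d, 1.24 to 2.21 for Ms4a6c, 1.09 to 3.23 for Ms4a6b and 2.51 to 5.78 for Ms4a4c, but 0.14 to 1.82 for Ms4a7 and 0.09 to 8.84 for Ms4a1. The lowest values of Ms4a7 and Ms4a1 came without CONV replicate 1, for Ms4a1 with the pair left out too. In FLASH against CONV, Ms4a6d stayed between −2.06 and −1.05, while Ms4a4c ran from −5.11 without FLASH replicate 3 to 2.18 without CONV replicate 2.

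With all 10 libraries 0 genes were called by edgeR in each comparison. DESeq2 called 66 genes and 1 member in CONV against sham and 40 genes and 1 member in FLASH against CONV. Without the pair edgeR called 6 genes in CONV against sham and 2 in FLASH against CONV, and limma voom 4 and 3. DESeq2 without the pair called 4 genes in FLASH against sham, 661 genes and 4 members in CONV against sham, and 667 genes and 4 members in FLASH against CONV. Leaving out single libraries, with or without the pair, gave 0 to 1134 genes and 0 to 5 members in CONV against sham, and 0 to 1025 genes and 0 to 2 members in FLASH against CONV. The highest gene counts came without CONV replicate 1 and the pair, and without CONV replicate 3 and the pair the counts were 138 and 86. Either leaves 1 CONV library, taken to vary as the rest do. The cause of these moves was not tested.

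Same-numbered libraries deviated together with correlations of −0.76 to 0.26, and 0 of 9 libraries correlated best with their own number. The lymphocyte-rich pair weighs on these deviations and carries unlike numbers. This check therefore cannot decide whether the numbers pair the libraries. With the replicate block 0 genes and 0 members were called in each comparison, with all 10 libraries and without the pair. At these depths Ms4a1 outside the pair rested on 6 to 57 counts.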

Other observations

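Gm8369, a protein-coding gene between Ms4a6c and Ms4a6b (chr19:11485938-11512577, plus strand, GRCm38), was singled out after its values were seen. It had 0.0304, 0.110, 41.7 and 0.431 CPM in FLASH, 0.639, 41.6 and 0.259 CPM in CONV, and 0.333, 0.229 and 0.235 CPM in sham libraries. It was high in both lymphocyte-rich libraries and low in the other 8. Its annotated coding sequence was 42.4% identical to that of Ms4a6c, 42.0% to that of Ms4a6b and 45.6% to that of Ms4a3. The longest identical coding stretch was 38 bases with Ms4a4b and 40 bases with Ms4a4c. Of the 50-base stretches of Gm8369, 0.229% also occurred in Ms4a4b, and how such reads were counted is not known.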
